A study of Mus musculus with 18 samples.

Results

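Transcripts of 10 genes that build or regulate the neuronal cytoskeleton were followed in mouse cortical neurons during depolarization: Nefl, Nefm, Nefh, Ina, Mapt, Map2, Map1b, Tubb3, Gap43 and Stmn2. They were chosen by symbol, and every probe set annotated to one of these symbols alone was taken, which gave 22 probe sets for 10 of the 18193 genes named on the arrays. Of the 22 probe sets, 18 lay on array set A and 4 on array set B, the other chip of an Affymetrix pair that carries different probe sets. All 22 passed the filter on dim probe sets. Set B covered Nefl with 1 probe set, Mapt with 1 and Map2 with 2.

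The cells came from mouse cortex on postnatal day 0 (the labels also use the word embryonic) and grew for 7 days in vitro; the labels name no strain, genotype or sex. They then received KCl for 0, 1 or 6 h, its concentration written as 55 mM for the samples and as 50 mM for the series, to depolarize them and open L-type voltage-sensitive calcium channels. The series text speaks of 3 independent experiments, and 3 arrays of each set stand for each time, so n = 3 for every mean below. No untreated arrays at 1 or 6 h are named in the labels, so KCl and time after its addition cannot be told apart, and a culture dish holds cells other than neurons.

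Neurofilaments are the intermediate filaments of neurons. They assemble from a light (Nefl), a medium (Nefm) and a heavy subunit (Nefh) together with alpha-internexin (Ina), and they fill and widen axons. Microtubules, polymers of alpha- and beta-tubulin, run beside them. Tau (Mapt) binds them mainly in axons, MAP2 (Map2) mainly in dendrites, and MAP1B (Map1b) in growing neurites. Class III beta-tubulin (Tubb3) is the neuronal beta-tubulin isotype, GAP-43 (Gap43) is a membrane-bound protein of growth cones, and stathmin-2 (Stmn2, also SCG10) binds tubulin dimers and regulates microtubule turnover in growing axons.

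RefSeq promoter windows (build GRCm38.p6) were at hand for 4 of the 10 genes, Ina, Map2, Map1b and Tubb3. The 250 bases before the gene start are shown for Tubb3, whose signal fell, and for Map2 and Map1b, which had probe sets that rose; capitals mark GGGCG on the strand shown or its reverse, the core of the site bound by EGR transcription factors.
Tubb3 chr8:123411303-123411552 (+): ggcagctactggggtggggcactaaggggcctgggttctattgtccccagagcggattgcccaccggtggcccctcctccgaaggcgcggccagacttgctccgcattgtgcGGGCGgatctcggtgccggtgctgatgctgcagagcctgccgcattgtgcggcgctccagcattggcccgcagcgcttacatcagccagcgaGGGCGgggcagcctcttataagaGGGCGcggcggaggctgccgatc
Map2 chr1:66175079-66175328 (+): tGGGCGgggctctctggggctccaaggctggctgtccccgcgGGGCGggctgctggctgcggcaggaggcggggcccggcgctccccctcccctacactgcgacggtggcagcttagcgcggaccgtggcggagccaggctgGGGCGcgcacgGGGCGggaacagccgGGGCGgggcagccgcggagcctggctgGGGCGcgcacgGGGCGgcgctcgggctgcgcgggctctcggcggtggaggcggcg
Map1b chr13:99516603-99516852 (-): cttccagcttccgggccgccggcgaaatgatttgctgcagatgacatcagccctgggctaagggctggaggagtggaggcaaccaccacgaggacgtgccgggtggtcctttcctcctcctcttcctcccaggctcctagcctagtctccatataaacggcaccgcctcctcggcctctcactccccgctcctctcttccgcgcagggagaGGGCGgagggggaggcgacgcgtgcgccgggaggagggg

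GGGCG occurred 3 times in the Tubb3 window, 7 times in that of Map2, 1 time in that of Map1b and 3 times in that of Ina, counting both strands, and 43.7% of 32851 RefSeq windows of the same length held it 1 or more times. None of the 4 windows held the CRE core TGACG (in 17.8% of windows), the full palindromic CRE (1.55%), the AP-1 motif TGANTCA (6.75%), the E-box CACGTG (6.02%) or the SRF CArG box (1.47%), on either strand. The full CRE holds that core within it. A match or its absence describes these letters only.

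Signals are linear intensities as deposited. Differences are on the scale of log2(signal + 16), so they understate changes of dim probe sets, and "changed" means an adjusted p under 0.05 from limma over all probe sets of that array set and contrast. A gene is represented by its brightest probe set over the 9 arrays, on set A where it has one. Set B arrays were quantile-normalized before the fit, and its signals are quoted as deposited. Unspiked control probe sets reached 74.8 on set A and 369 on set B at their 95th percentile. The median residual SD was 0.28 log2 on set A and 0.73 on set B, where the 3 arrays numbered 1 also held 27.4% to 28% of values below 0. As a check of the time labels, Fos rose by 6.58 ± 0.19 (SE) log2 at 1 h, Arc by 5.21 ± 0.31 at 1 h, and Bdnf by 3.39 ± 0.33 at 6 h.

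The labelled cell type was checked on markers. The neuronal markers Snap25, Syn1 and Gad1 gave 2610 ± 260 (SD), 3700 ± 373 and 2780 ± 213 at 0 h, but the astrocyte markers Gfap, at 6090 ± 1010, and Aldoc, at 5880 ± 446, were bright as well. The summed set A signal of 7 neuronal markers ran from 12397 to 13123 at 0 h, from 12923 to 13946 at 1 h and from 16056 to 17929 at 6 h. That of 7 astrocyte markers ran from 20262 to 20801, from 14377 to 16862 and from 12845 to 14866, below its 0 h range at both later times. Of 9 neuronal markers measured on either set, Gad1 and Snap25 rose and Camk2a fell at 6 h, and of 8 astrocyte markers 3 fell and 0 rose; no array had any of the 7 set A astrocyte markers at 0. Of the other marker lists, 1 of 6 neural progenitor genes (Pax6) and 1 of 6 microglial genes (Cd68) rose at 6 h, 1 of 9 vascular and fibroblast genes (Pecam1) fell and 0 of 8 oligodendrocyte lineage genes changed. Over all 15232 genes 6.16% rose and 10.6% fell at 6 h. The median difference at 6 h was 0.00 for the neuronal list and -0.19 for the astrocyte list. A change in the number of cells of a type and a change in RNA per cell cannot be told apart in such bulk RNA, and the part of the marker shifts in the results was not tested.

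Across the 18 set A probe sets, 7 were higher and 0 lower at 1 h than at 0 h, where 4.17% of all 16969 probe sets tested had changed and 3.25% were higher. At 6 h against 0 h, 9 were higher and 1 lower, where 22.1% of all had changed, with 10.4% higher and 11.7% lower. At 6 h against 1 h, 3 were higher and 1 lower, where 11.6% of all had changed, with 5.07% higher and 6.51% lower. The median difference of the 18 was 0.72 at 1 h, 0.55 at 6 h and -0.16 between them, against -0.01, -0.05 and -0.05 over all probe sets. Genes with several probe sets weigh more in these medians. With 1 probe set per gene the medians of the 10 genes were 0.26, 0.36 and -0.01, against -0.05, -0.09 and -0.05 over all genes. Leaving out 1 array moved these counts most at 1 h, to 0 without 0 h replicate 1, 4 without 0 h replicate 2 and 1 without 1 h replicate 1 or 3; at 6 h against 0 h 6 passed without 6 h replicate 1 or 3, and at 6 h against 1 h 2 passed without 6 h replicate 1. On set B, 0 of the 4 probe sets changed at 1 h (0.219% of all 16883 did; 1 of the 4 had an unadjusted p under 0.05), and 1 rose at 6 h both against 0 h (5.01% of all changed, 2.23% upward) and against 1 h (2.35% and 0.971%).

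Counted by gene through its brightest probe set, Nefl and Mapt rose at 1 h, where 1.81% of 15232 genes changed and 1.11% rose. At 6 h Nefl, Nefm and Mapt rose and Tubb3 fell, where 16.8% of genes changed (6.16% rose, 10.6% fell), and between 1 h and 6 h Nefl and Nefm rose and Tubb3 fell, where 9.81% did (3.99% and 5.82%). Any probe set of a gene being enough, 5 genes changed at 1 h, all upward, where 3.91% of all genes changed by that rule and 2.97% rose. At 6 h 8 did, 7 up and 1 down, where 22.2% of all changed (9.86% up, 13.0% down). The number thus depends on which probe set stands for a gene, and Ina, Map2, Map1b and Stmn2 rose by a probe set other than their brightest.

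**Figure D1:**
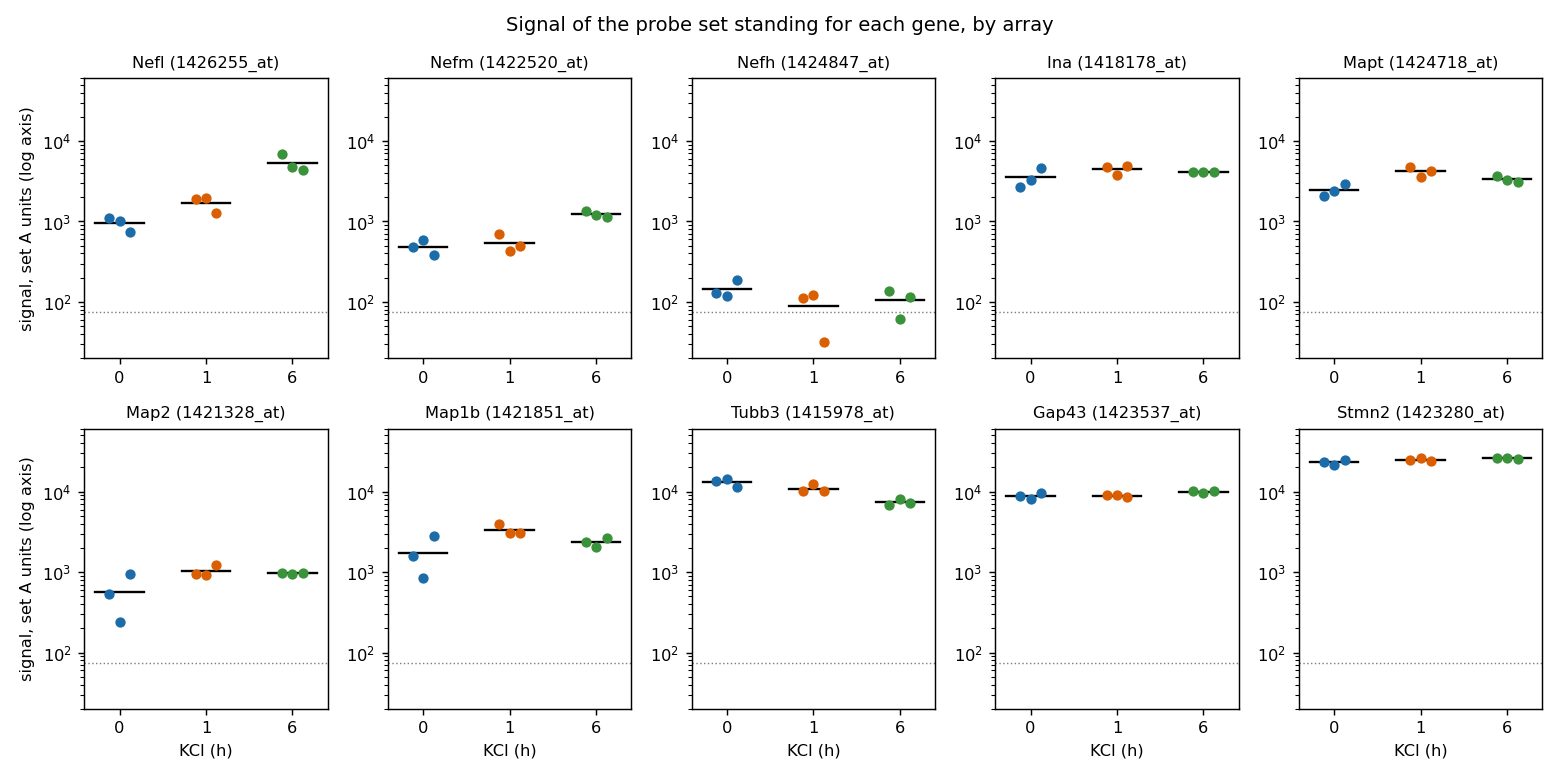
Deposited set A signal (log axis, 1 point per array, bar at the mean, n = 3) of the brightest probe set of each gene at 0, 1 and 6 h of KCl; the dotted line is the 95th percentile of unspiked controls, 74.8. Nefl and Nefm are highest at 6 h and Tubb3 lowest at 6 h, without overlap with 0 h, and Nefh lies near the dotted line.

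Neurofilament light chain showed the largest rise at 6 h among the 22 probe sets on the log2 scale. On set A (1426255_at) its signals were 1093, 1008 and 750 at 0 h, 1913, 1950 and 1290 at 1 h, and 6879, 4729 and 4349 at 6 h, in replicates 1 to 3. No 2 times overlapped, and replicate 3 was the lowest array at each time. Nefl had risen by 0.84 ± 0.21 (SE) log2 at 1 h (1.79-fold, adjusted p 0.0419) and by 2.45 ± 0.21 at 6 h (5.48-fold, adjusted p 9.85e-06), and the step from 1 h to 6 h was 1.62 ± 0.21 (3.07-fold, adjusted p 0.000391). The 1 h call was near the threshold. It was lost when any single 0 h array, replicate 1 or 2 at 1 h, or replicate 2 or 3 at 6 h was left out (adjusted p 0.0523 to 0.13), and with no filter (0.0565), array medians set equal (0.0781) or no intensity trend (0.132), and held in 6 of 17 alternatives, while no left-out array ended the calls at 6 h.

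A second Nefl probe set, on set B (1454672_at), comes from another transcript record and gave the same order of times. The series text speaks of 3 independent experiments, so both sets may hold RNA of the same cultures. The second probe set is therefore not taken as a separate replication. Its signals were 4477, 3144 and 2830 at 0 h, 6111, 4056 and 4754 at 1 h, and 15057, 7816 and 7717 at 6 h. The 6 h arrays were all above the others, and the 0 h and 1 h arrays overlapped. The difference was 0.60 ± 0.15 log2 at 1 h (adjusted p 0.221), 1.62 ± 0.15 at 6 h (3.07-fold, adjusted p 7.15e-05) and 1.02 ± 0.15 from 1 h to 6 h (adjusted p 0.0036). A fit that blocked on replicate passed this probe set at 1 h too (0.60 ± 0.12, adjusted p 0.0384). Without the 3 arrays numbered 1, which hold the values below 0 and stand apart from the others, the difference was 0.65 ± 0.15 at 1 h (adjusted p 0.275) and 1.57 ± 0.15 at 6 h (adjusted p 0.000597).

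Neurofilament medium chain rose at 6 h without a detected change at 1 h. Nefm (1422520_at) gave 479, 581 and 380 at 0 h, 691, 428 and 493 at 1 h, and 1355, 1204 and 1121 at 6 h. The 0 h and 1 h arrays were intermixed and all 6 h arrays lay above both. The difference was 0.15 ± 0.20 log2 at 1 h (adjusted p 0.74, 95% interval -0.28 to 0.58), 1.34 ± 0.20 at 6 h (2.53-fold, adjusted p 0.000494) and 1.19 ± 0.20 from 1 h to 6 h (adjusted p 0.00217). Nefl and Nefm are neighbours on chromosome 14 in the GRCm38.p6 gene order, with 1 listed gene and 0 protein-coding genes between them. Over the 9 set A arrays their log2 signals correlated with r = 0.92, a description over arrays that share time, library and scale.

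The other 2 filament subunits did not pass by their brightest probe sets, and differences between subunits were not tested. Neurofilament heavy chain (Nefh, 1424847_at) was dim, with 128, 119 and 185 at 0 h, 112, 123 and 31.8 at 1 h, and 137, 60.9 and 115 at 6 h. Arrays of all times overlapped, and 1 array at 1 h and 1 at 6 h lay under the level of the unspiked controls. Nefh differed by -0.74 ± 0.43 at 1 h (adjusted p 0.379) and by -0.45 ± 0.43 at 6 h (adjusted p 0.524, interval -1.39 to 0.49), so the interval at this dim signal holds both falls and rises.

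Alpha-internexin was measured by 3 set A probe sets designed on 1 transcript record. The brightest (1418178_at) gave 2672, 3246 and 4683 at 0 h, 4730, 3803 and 4925 at 1 h, and 4093, 4157 and 4083 at 6 h. The 0 h arrays spread most, and replicate 3 at 0 h reached the levels of the treated arrays. This Ina probe set differed by 0.37 ± 0.18 at 1 h (adjusted p 0.261) and 0.26 ± 0.18 at 6 h (adjusted p 0.345), and without 0 h replicate 3 by 0.60 (adjusted p 0.0234) and 0.48 (adjusted p 0.0284). The second, 1448991_a_at, gave 0.67 ± 0.18 at 1 h (adjusted p 0.0529) and 0.38 ± 0.18 at 6 h. The dimmest, 1448992_at, rose from 603, 490 and 916 at 0 h to 1264, 1039 and 1826 at 1 h and 1398, 1134 and 1177 at 6 h, by 1.03 ± 0.23 (adjusted p 0.0272) and 0.91 ± 0.23 (adjusted p 0.0135). Its 1 h call was lost without 0 h replicate 1 or 2 or 1 h replicate 1 or 3 (adjusted p 0.0682 to 0.109), and its 6 h call without 0 h replicate 2 (adjusted p 0.057) or 6 h replicate 1 (adjusted p 0.0554). All 3 estimates were positive at both times, and the 3 probe sets differed in the call.

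**Figure D2:**
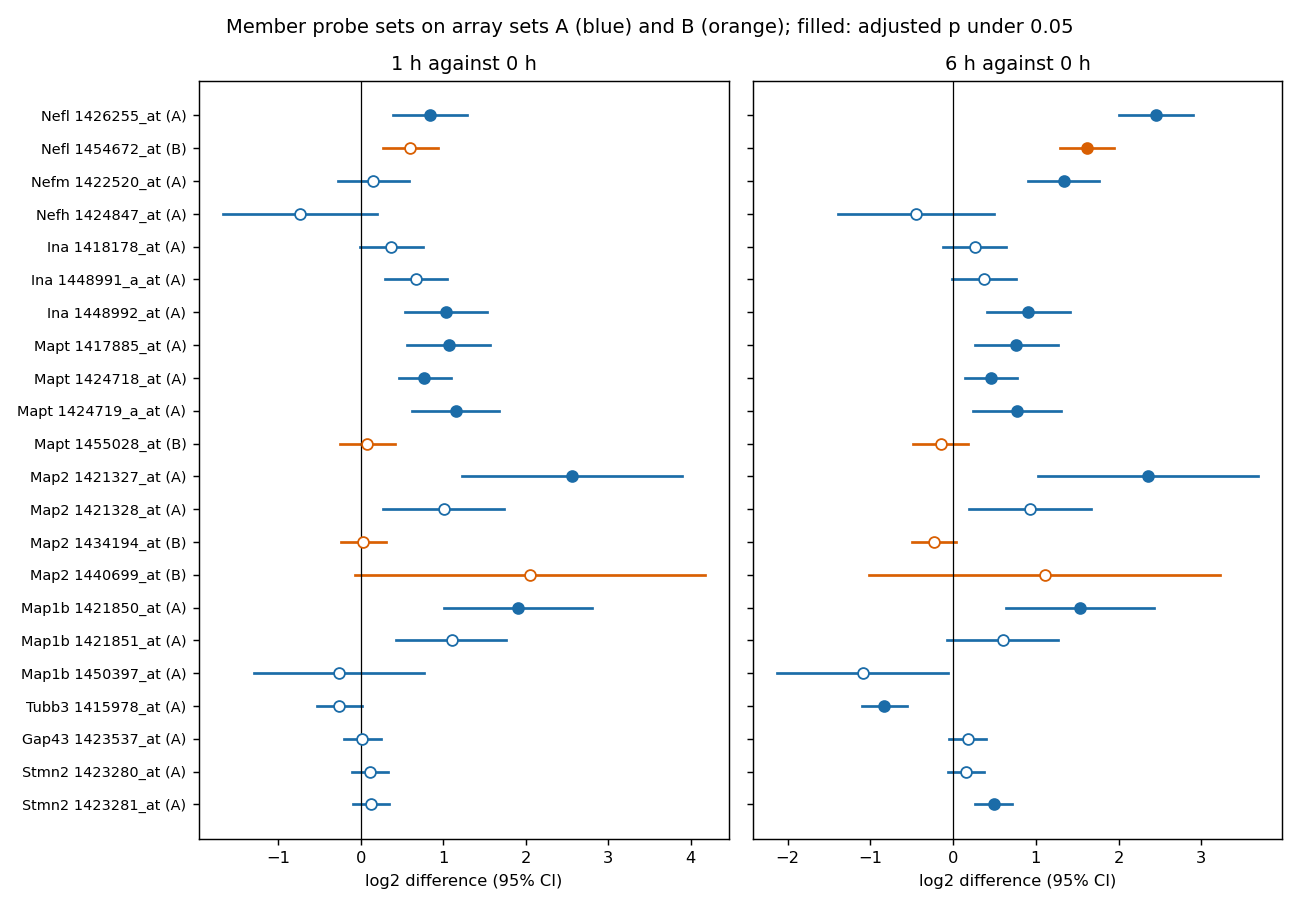
Log2 difference with its 95% interval for all 22 probe sets at 1 h (left) and 6 h (right) against 0 h, blue for set A and orange for set B, filled where the adjusted p was under 0.05. At 6 h the largest filled difference is Nefl on set A, 2.45, and the only filled one below 0 is Tubb3, -0.83. On set B, Mapt 1455028_at lay too near the top of the quantile-normalized scale to show a rise as large as on set A. On the deposited scale, not drawn, it differed by -0.13 at 1 h and -0.27 at 6 h. Map2 1434194_at had 1.20 log2 of room on the quantile-normalized scale above its 0 h mean.

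Tau transcripts rose on set A, and the set B probe set of Mapt showed no rise. Its quantile-normalized values lay too near the top of that scale to show one as large as on set A. On the deposited scale its estimates were below 0 as well, -0.13 ± 0.29 at 1 h and -0.27 ± 0.29 at 6 h. The brightest set A probe set (1424718_at) gave 2087, 2382 and 2891 at 0 h, 4772, 3570 and 4249 at 1 h, and 3643, 3281 and 3119 at 6 h. The 1 h and 6 h arrays all lay above the 0 h arrays. Mapt thus rose by 0.77 ± 0.14 at 1 h (1.71-fold, adjusted p 0.0114) and by 0.46 ± 0.14 at 6 h (1.37-fold, adjusted p 0.039), and 6 h differed from 1 h by -0.32 ± 0.14 (adjusted p 0.189). The 1 h call was lost without 0 h replicate 1 (adjusted p 0.057) or 1 h replicate 3 (adjusted p 0.0526). The 6 h call was lost without 0 h replicate 1 (0.35, adjusted p 0.157) or 2 (adjusted p 0.0901), 1 h replicate 3 (adjusted p 0.0551) or any 6 h array (adjusted p 0.0627 to 0.137), and with no filter (adjusted p 0.0504), quantile normalization (0.0822) or no intensity trend (0.108), so that it held in 7 of 17 alternatives.

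The other set A probe sets of Mapt moved alike. 1417885_at gave 1150, 916 and 1905 at 0 h, 3054, 2048 and 3016 at 1 h, and 2192, 2430 and 1879 at 6 h, a difference of 1.07 ± 0.23 (adjusted p 0.0238) and 0.76 ± 0.23 (adjusted p 0.0329). 1424719_a_at gave 664, 1295 and 1195 at 0 h, 2508, 1623 and 2823 at 1 h, and 1894, 1790 and 1543 at 6 h, a difference of 1.15 ± 0.24 (adjusted p 0.0203) and 0.77 ± 0.24 (adjusted p 0.0379). Both were above all 0 h arrays at 1 h, and at 6 h 1417885_at overlapped its highest 0 h array. Their 1 h calls were lost without 0 h replicate 1 or 1 h replicate 1 or 3, and for 1417885_at without 0 h replicate 2 (adjusted p 0.0673 to 0.0987). Their 6 h calls were lost without 0 h replicate 1 or 6 h replicate 1 or 2, for 1417885_at without 0 h replicate 2 and for 1424719_a_at without 6 h replicate 3 (adjusted p 0.0586 to 0.149). On set B, the bright Mapt probe set 1455028_at gave 99810, 70970 and 68962 at 0 h, 84900, 70526 and 61871 at 1 h, and 85768, 64526 and 50282 at 6 h. Its times overlapped and replicate 1 was highest at each of them. It ranked between 1 and 3 from the top among the tested probe sets of every array and was the brightest on 4 of 9, so quantile normalization left its 0 h mean 0.16 log2 below the highest value possible. The differences in that fit, 0.08 ± 0.15 at 1 h (adjusted p 0.999) and -0.15 ± 0.15 at 6 h (adjusted p 0.789), therefore could not show a rise of the size seen on set A. On the deposited scale, an alternative added for the set B probe sets of Mapt and Map2 after seeing the data, this Mapt probe set differed by -0.13 ± 0.29 at 1 h (interval -0.78 to 0.52) and -0.27 ± 0.29 at 6 h (interval -0.92 to 0.38, adjusted p 0.838). With array medians set equal the intervals were -1.62 to 1.19 and -1.86 to 0.95. The deposited-scale intervals ended below all set A estimates of Mapt for the same time, and those with equal medians covered them. The difference between the probe sets of Mapt was not tested.

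MAP2 had 1 probe set that rose, a dim one on set A. The brightest set A probe set (1421328_at) gave 528, 241 and 952 at 0 h, 944, 908 and 1223 at 1 h, and 983, 941 and 963 at 6 h. The 0 h arrays differed from each other more than the treated arrays did, with replicate 2 lowest and replicate 3 as high as the treated arrays. The difference was 1.01 ± 0.34 at 1 h (adjusted p 0.12) and 0.93 ± 0.34 at 6 h (adjusted p 0.0695), and without 0 h replicate 3 it was 1.46 (adjusted p 0.00501) and 1.39 (adjusted p 0.00284). A dimmer Map2 probe set from the same transcript record, 1421327_at, gave 143, 15.8 and 344 at 0 h, 713, 538 and 905 at 1 h, and 537, 552 and 770 at 6 h. Replicate 2 at 0 h was under the level of the unspiked controls, and no 0 h array reached the treated arrays. It rose by 2.56 ± 0.61 at 1 h (adjusted p 0.0373) and by 2.36 ± 0.61 at 6 h (adjusted p 0.0149), with intervals of 1.23 to 3.89 and 1.03 to 3.69. The 1 h call was lost without 0 h replicate 1 (adjusted p 0.0765), any 1 h array (adjusted p 0.055 to 0.127) or any 6 h array (adjusted p 0.0546 to 0.0587). It was also lost with an added constant of 1 (0.0567), no filter (0.055) or no intensity trend (0.122), and held in 6 of 17 alternatives. The 6 h call was lost without 6 h replicate 3 (adjusted p 0.0557) or without the intensity trend (0.0533), and held in 14 of 17.

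On set B, the bright Map2 probe set 1434194_at gave 46296, 33241 and 29412 at 0 h, 38459, 32713 and 32399 at 1 h, and 37662, 23944 and 24668 at 6 h. Its times overlapped. It lay between ranks 11 and 25, with 1.20 log2 between its 0 h mean and the highest value after quantile normalization. That room was larger than the set A differences of 1421328_at (1.01 and 0.93) and smaller than those of 1421327_at (2.56 and 2.36). The difference in the quantile-normalized fit was 0.03 ± 0.12 at 1 h (adjusted p 0.999, interval -0.24 to 0.30). At 6 h it was -0.23 ± 0.12 (adjusted p 0.451, interval -0.50 to 0.04). On the deposited scale it was -0.05 ± 0.26 at 1 h (interval -0.63 to 0.53) and -0.34 ± 0.26 at 6 h (interval -0.92 to 0.24). With array medians set equal the intervals were -1.27 to 1.00 and -1.66 to 0.60. All these intervals ended below both set A estimates of Map2 for the same time. The difference between the probe sets was not tested. The other set B probe set of Map2, 1440699_at, ran from -59.6 to 449, with no 0 h array above the level of the unspiked controls, and differed by 2.05 ± 0.98 at 1 h (adjusted p 0.865).

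MAP1B was measured by 3 set A probe sets from 1 transcript record, and they disagreed in direction. The brightest (1421851_at) gave 1591, 840 and 2809 at 0 h, 3947, 3083 and 3077 at 1 h, and 2380, 2081 and 2689 at 6 h. The 1 h arrays lay above all 0 h arrays and the 6 h arrays within their range. This Map1b probe set differed by 1.10 ± 0.31 at 1 h (adjusted p 0.065) and 0.60 ± 0.31 at 6 h (adjusted p 0.196), and without 0 h replicate 3 by 1.52 (adjusted p 0.00172) and 1.02 (adjusted p 0.00762). The second, 1421850_at, rose from 551, 171 and 944 at 0 h to 2058, 1515 and 1685 at 1 h and 1273, 1285 and 1458 at 6 h. The treated arrays all lay above the 0 h arrays, by 1.91 ± 0.41 at 1 h (3.76-fold, adjusted p 0.0222) and 1.53 ± 0.41 at 6 h (2.89-fold, adjusted p 0.0179). Those calls were lost without 0 h replicate 1 (adjusted p 0.0562) or 1 h replicate 1 (0.0844) or 3 (0.0768) at 1 h, and without 6 h replicate 3 (0.0584) at 6 h. The third, 1450397_at, gave 763, 1540 and 1399 at 0 h, 2232, 393 and 1069 at 1 h, and 812, 452 and 438 at 6 h, with -0.26 ± 0.48 at 1 h (adjusted p 0.82) and -1.09 ± 0.48 at 6 h (adjusted p 0.125).

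**Figure D3:**
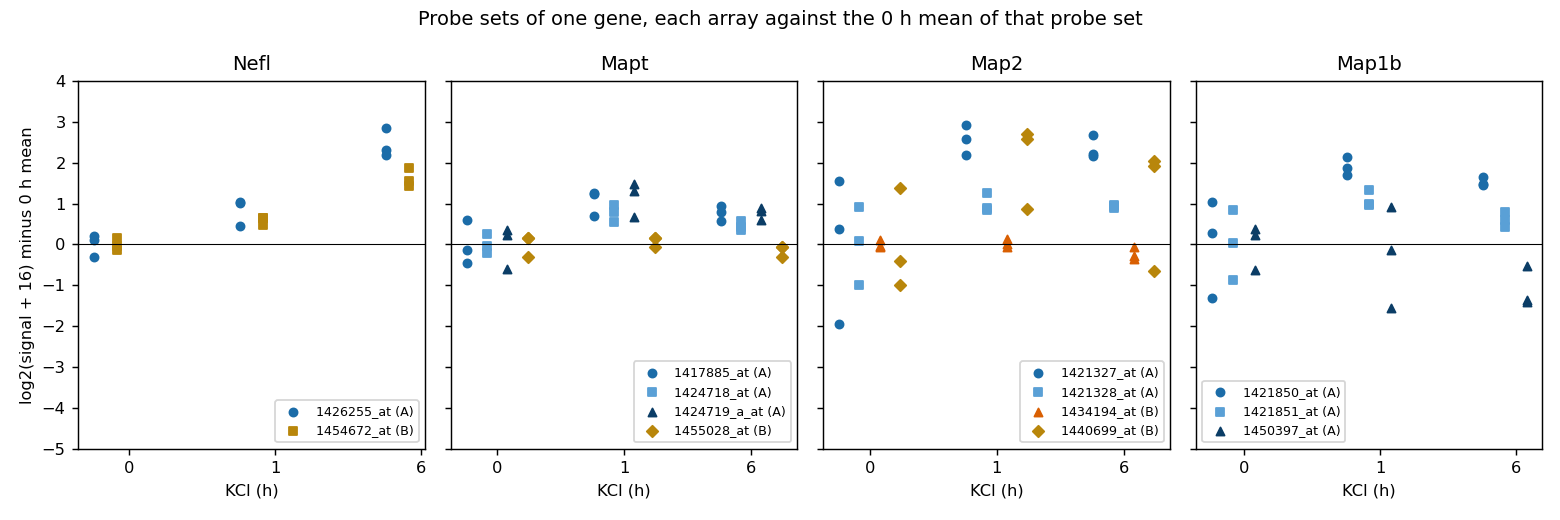
Each array's log2(signal + 16) minus the 0 h mean of the same probe set, for all probe sets of Nefl, Mapt, Map2 and Map1b (blue, set A; orange or gold, set B after quantile normalization). Both Nefl probe sets are highest at 6 h, and Map1b 1450397_at lies below 0 at 6 h. The set B probe sets Mapt 1455028_at and Map2 1434194_at stay near 0. Above its 0 h mean the first had 0.16 log2 of room on that scale and the second 1.20.

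Several probe sets ran at 0 h in the same order of arrays as a measure of RNA or cRNA integrity. The ratio of 5' to 3' control signal on set A was 0.859 ± 0.195 (SD) for Gapdh at 0 h, 1.17 ± 0.103 at 1 h and 1.21 ± 0.0427 at 6 h. For Actb it was 0.391 ± 0.122, 0.669 ± 0.0496 and 0.574 ± 0.0204 (two-sided exact permutation test against 0 h, p 0.1 at both times for Actb, 0.2 and 0.1 for Gapdh; 0.1 is the smallest p that 3 against 3 arrays allow). At 0 h the Gapdh ratio was 0.83, 0.679 and 1.07 in replicates 1 to 3 and the Actb ratio 0.347, 0.298 and 0.529. Replicate 2 had the lowest ratios and replicate 3 the highest, and 10 of the 18 set A probe sets had that order of signals at 0 h. They include 5 of the 9 that rose against 0 h at either time, Map2 1421327_at, Map1b 1421850_at, Ina 1448992_at, Mapt 1417885_at and Stmn2 1423281_at. The share of all set A probe sets with that order was not determined, so neither count is read as particular to these genes. The part of integrity in these rises was not tested apart from the fit that follows.

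With the Gapdh ratio of each array as a covariate, Nefl and Nefm kept their 6 h rise and no other set A probe set of the 10 genes passed against 0 h. At 6 h Nefl was higher by 2.64 ± 0.35 (adjusted p 0.00261) and Nefm by 1.84 ± 0.29 (adjusted p 0.0065), 2 of 18 probe sets where 2.77% of all passed, and at 1 h 0 of 18 passed, where 0.365% of all did. Nefl on set B was higher by 1.71 ± 0.23 (adjusted p 0.00632) in that fit. Of the 18 set A estimates, 15 were above 0.00 at 1 h and 15 at 6 h without the covariate, and 13 and 10 with it. The estimate of Map2 1421327_at at 6 h was 0.25 ± 0.75 and that of Map1b 1421850_at 0.01 ± 0.46, against 2.36 and 1.53 without the covariate. Mapt 1424718_at had 0.35 ± 0.25 (adjusted p 0.527) and Ina 1448992_at 0.63 ± 0.39 (adjusted p 0.468), while Mapt 1424719_a_at went from 0.77 to 1.09 ± 0.41 (adjusted p 0.202). At 1 h the estimates that lost their call were 1.00 ± 0.33 for Nefl (0.84 without the covariate), 0.68 ± 0.23 for Mapt 1424718_at (0.77), 1.43 ± 0.38 for Mapt 1424719_a_at (1.15) and 0.78 ± 0.36 for Ina 1448992_at (1.03). Those of Mapt 1417885_at (0.64), Map2 1421327_at (0.68) and Map1b 1421850_at (0.55) were smaller than without it (1.07, 2.56 and 1.91). The ratio differs between the times, so this fit has larger errors, and the part of integrity and that of KCl in these differences cannot be told apart.

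**Figure D4:**
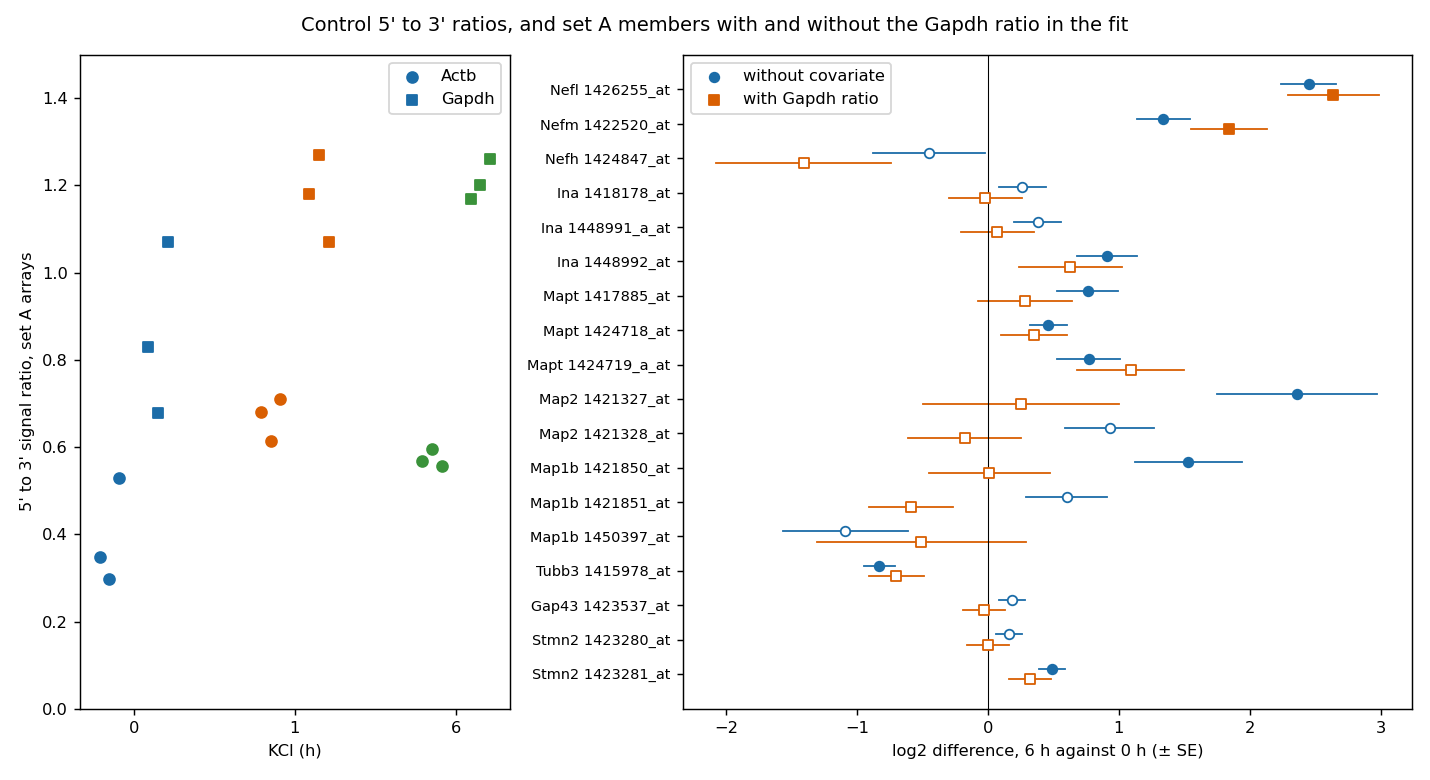
Left, 5' to 3' signal ratios of the Actb (circles) and Gapdh (squares) controls on the 9 set A arrays (blue 0 h, orange 1 h, green 6 h). Right, log2 difference at 6 h against 0 h with its SE for the 18 set A probe sets without (blue) and with (orange) the Gapdh ratio in the fit, filled where the adjusted p was under 0.05; Nefl and Nefm alone are filled in both.

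Class III beta-tubulin was the gene of the 10 that fell. Tubb3 (1415978_at) gave 13719, 14219 and 11392 at 0 h, 10170, 12314 and 10283 at 1 h, and 6786, 7993 and 7252 at 6 h. The 6 h arrays lay below all others, and the 0 h and 1 h arrays overlapped. The difference was -0.26 ± 0.12 at 1 h (adjusted p 0.268, interval -0.53 to 0.01), -0.83 ± 0.12 at 6 h (0.562-fold, adjusted p 0.00056) and -0.57 ± 0.12 from 1 h to 6 h (adjusted p 0.0109). No left-out array ended the call against 0 h, and the Gapdh covariate did (-0.70 ± 0.21, adjusted p 0.0997); the step from 1 h was lost without 6 h replicate 1 (-0.51, adjusted p 0.0524), with array medians set equal (-0.46, adjusted p 0.0967) and without the intensity trend (adjusted p 0.059). The median difference of the 9 neuronal markers at 6 h, 7 of them read on set A, was 0.00, with 2 up, 1 down and 6 that did not pass.

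Growth-associated Gap43 did not pass the test at either time. The signals (1423537_at) were 8786, 8102 and 9725 at 0 h, 9087, 9095 and 8625 at 1 h, and 10115, 9764 and 10092 at 6 h. The 6 h arrays lay just above the others. Gap43 differed by 0.01 ± 0.10 at 1 h (adjusted p 0.962, interval -0.21 to 0.24) and by 0.18 ± 0.10 at 6 h (adjusted p 0.267, interval -0.05 to 0.40), so changes above 0.40 log2 lay outside the interval.

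Stathmin-2 had 2 set A probe sets from 1 transcript record, of which 1 rose at 6 h. Its brightest probe set (1423280_at) gave 23421, 21651 and 24718 at 0 h, 24717, 26150 and 24306 at 1 h, and 26144, 26120 and 25576 at 6 h. The 6 h arrays lay just above the 0 h arrays, by 0.16 ± 0.10 (adjusted p 0.305, interval -0.06 to 0.38), and the 1 h difference was 0.11 ± 0.10 (adjusted p 0.613). The dimmer Stmn2 probe set, 1423281_at, gave 11983, 11838 and 13788 at 0 h, 13430, 13911 and 13417 at 1 h, and 17570, 17855 and 17287 at 6 h. Its 6 h arrays were well apart from the others, 0.49 ± 0.10 above 0 h (1.4-fold, adjusted p 0.00432) and 0.37 ± 0.10 above 1 h (adjusted p 0.0331). The call against 1 h was lost without 1 h replicate 1 (adjusted p 0.0812) or 3 (0.0983) or any 6 h array (0.0853 to 0.12). The 1 h difference of 1423281_at was 0.12 ± 0.10 (adjusted p 0.574).

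Groups that did not overlap in deposited signal followed the same lines. Of the 18 set A probe sets, 9 did not overlap between 0 h and 1 h, all higher at 1 h, where 22.2% of all probe sets did not overlap and 11.4% were higher in that way. Between 0 h and 6 h 11 did not overlap, 10 of them higher at 6 h, where 39.3% of all did not and 17.5% were higher. Between 1 h and 6 h 7 did not overlap, 4 of them higher, where 31.7% of all did not and 14.0% were higher.

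The patterns over the 9 set A arrays were also set against the brightest probe sets of 9980 other genes on set A by Pearson's r, as a description. Closest to Nefl were Hspb3 (r = 0.977, a small heat shock protein), Brinp1 (0.976) and Dhx15 (0.975, an RNA helicase); Hspb3 and Brinp1 differed at 6 h by 2.78 and 2.88 log2 and Dhx15 by 0.48. Closest to Nefm were Leng1 (0.982), Ppme1 (0.980, a methylesterase of protein phosphatase 2A) and Nmt1 (0.978, an N-myristoyltransferase). Closest to Tubb3 were Nudt2 (0.984), Coa3 (0.984, an assembly factor of cytochrome oxidase) and Ikbkg (0.983, the regulatory subunit of the IKK complex), each lower at 6 h by estimates of -0.84, -0.86 and -1.12. For Mapt they were Heatr6 (0.954), Hsd11b2 (0.943) and Magt1 (0.942), for Map2 6820431F20Rik (0.983), Cops2 (0.980) and Ncoa4 (0.977), and for Map1b Eif2ak2 (0.979), Serpinb8 (0.973) and Zfp445 (0.962). Ina was closest to Retreg3 (0.939), Abcb4 (0.918) and Golph3l (0.911), and Nefh to Zfp568 (0.971), Septin8 (0.933) and Ubox5 (0.928). Gap43 was closest to the intermediate filament gene Vim (0.951), Ppp2r5a (0.929) and Mlf1 (0.927), and Stmn2 to the neuropeptide gene Nts (0.970), Scoc (0.960) and Zfp991 (0.953). Among the 10 genes themselves, Map1b and Map2 followed each other with r = 0.91, Ina and Mapt with 0.83, and Nefl ran opposite to Tubb3 with -0.89. The arrays share time, RNA integrity and scale, and the coefficients carry no test.

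Genes of the same structures were taken from 8 related lists, 128 genes measured through their brightest probe set. At 6 h against 0 h, where 16.8% of all 15232 genes changed (6.16% rose, 10.6% fell, median -0.09), 8 of the 128 rose and 26 fell. At 1 h, where 1.81% of all changed (1.11% rose, 0.696% fell, median -0.05), 3 of the 128 rose and 2 fell. With array medians set equal 9 rose and 17 fell at 6 h, and 1 of 26 other microtubule-associated proteins, 1 of 8 stathmins and CRMP family members and 0 of 9 intermediate filament genes (Gfap no longer passing) were among the falls. At 1 h the kinesin heavy chains Kif5c (2.34 ± 0.47) and Kif5a (0.87 ± 0.22) and the doublecortin-like kinase Dclk1 (0.44 ± 0.11) rose, and Cdk5r1, the p35 activator of Cdk5 (-0.63 ± 0.13), and the actin bundler Fscn1 (-0.44 ± 0.11) fell.

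The counts of each list at 6 h stand beside 6.16% of all genes that rose and 10.6% that fell. Of 11 tubulins other than Tubb3, 4 fell and 0 rose at 6 h, with a list median of -0.40. Tubulins share sequence with each other, so probe sets may read more than 1 of them. Tubg1, the gamma-tubulin of microtubule nucleation, changed by -0.89 ± 0.15 log2 (616 ± 36.3 to 326 ± 32.9), Tubb5 by -0.60 ± 0.14 and Tubb4a by -0.58 ± 0.14. Among 26 other microtubule-associated proteins (median -0.10) 2 rose and 3 fell: Dclk1 (0.94 ± 0.11) and the dynein regulator Ndel1 (0.85 ± 0.13) rose, and Camsap3 (-0.76 ± 0.17), Map4 (-0.49 ± 0.12) and Clasp1 (-0.48 ± 0.15) fell. Of 8 other stathmins and CRMP family members (median -0.10), Dpysl5 (-0.73 ± 0.14) and Crmp1 (-0.40 ± 0.11), both of the collapsin response mediator family, fell and 0 rose.

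Of 9 other intermediate filament genes (median -0.42), lamin A (Lmna, 1.14 ± 0.15) and vimentin (Vim, 0.82 ± 0.16) rose and the astrocyte filament Gfap fell (-0.70 ± 0.23). Of 22 microtubule motor genes (median -0.08) 3 rose and 5 fell, led by Kif5c (2.57 ± 0.47, from 195 ± 206 to 926 ± 254), Kif5b (0.72 ± 0.22) and Kif1b (0.39 ± 0.12) upward and Kif21b (-0.61 ± 0.14), Kif2a (-0.53 ± 0.13) and Dctn1 (-0.51 ± 0.13) downward, and with array medians set equal 3 rose and 1 fell. Of 20 kinases, phosphatases and severing enzymes (median -0.08), the phosphatase catalytic subunit Ppp2ca rose (0.93 ± 0.10) and 4 fell, among them Cdk5r1 (-1.23 ± 0.13) and the tau kinases Mark4 (-0.74 ± 0.15) and Mark1 (-0.55 ± 0.14). Of 19 growth-cone and plasticity genes (median -0.17) 0 rose and 4 fell, with Gprin1 at -0.98 ± 0.19, Ncam1 at -0.89 ± 0.16 and Nfasc at -0.80 ± 0.18. Of 13 membrane skeleton genes (median -0.32) 0 rose (1 did with quantile normalization or equal medians on set A) and the adducins Add3 (995 ± 165 to 495 ± 123, adjusted p 0.0032) and Add1 (-0.45 ± 0.10) and the ankyrin Ank1 (-0.67 ± 0.18) fell. With the Gapdh ratio in the fit 4 of the 128 passed at 6 h and 0 at 1 h. In that fit 2.77% and 0.365% of all set A probe sets passed, and 0.811% and 0.0355% of all on set B. Without that ratio, the 5 calls at 1 h became 0 without 0 h replicate 1 and 1 without 0 h replicate 2 or 1 h replicate 3. They became 2 or 3 without 1 h replicate 1 or any 6 h array.

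**Figure D5:**
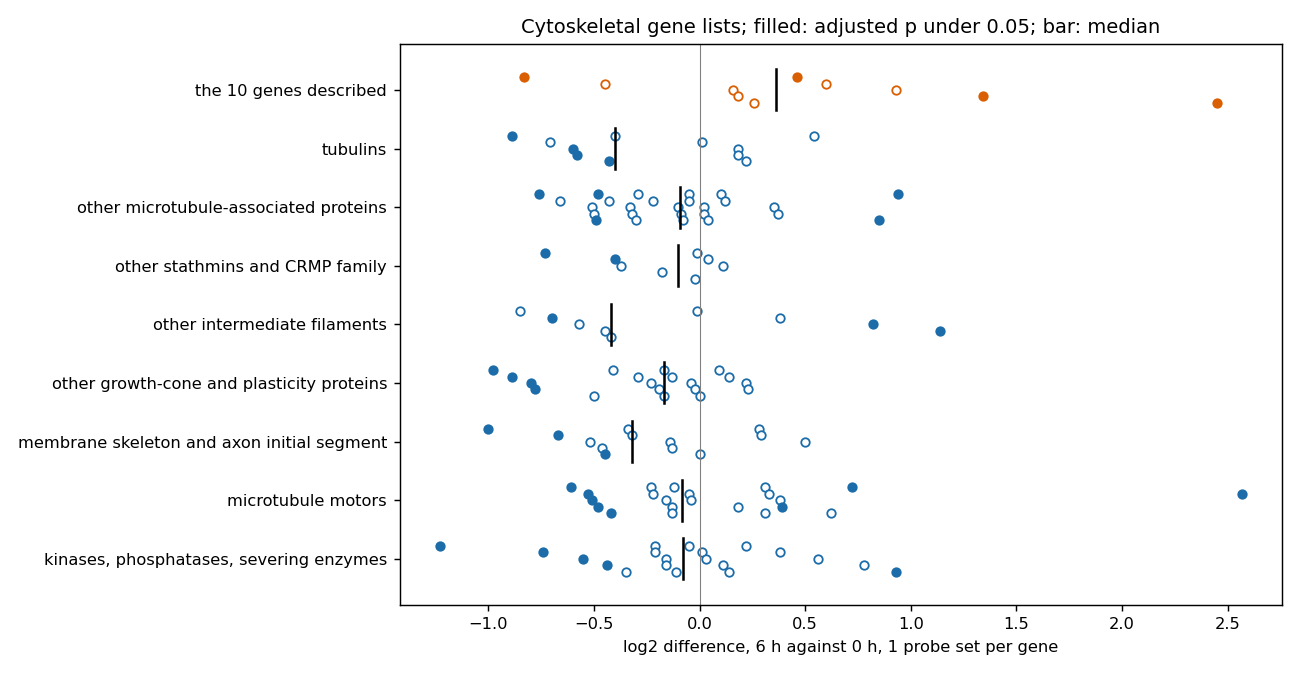
Log2 difference at 6 h against 0 h of each gene (1 probe set per gene) in the 10 genes described (orange) and 8 related lists (blue), filled where the adjusted p was under 0.05, with a bar at each list's median. The medians of the 8 related lists lie between -0.42 and -0.08, that of the 10 genes is 0.36 and that of all 15232 genes is -0.09. Of the 10 genes 3 rose and 1 fell. With the Gapdh ratio in the fit Nefl and Nefm alone of the 10 passed.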

How the data were processed

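Deposited tables of 2 Affymetrix array types held 1 linear intensity per probe set and array, scaled by the authors to nearly equal trimmed means (from the values); the summary method was not stated in the labels or files read. Per the labels' protocols, 200 ng of total RNA was labelled with biotin by in vitro transcription. Values below 0 occur on set B alone, on its 3 arrays of replicate 1; whether these were summarised differently is not stated.

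Negative values were replaced by 0, and log2(value + 16) was computed. Set A kept its scale, since its array medians lay within 0.5 log2 (spread 0.26), and set B (0.60) was quantile-normalized. The 64 control probe sets and the 25% dimmest were left out, so that 16969 of 22626 set A and 16883 of 22511 set B probe sets were tested. Each set was fitted with limma 3.58.1 in R 4.3.3 (1 mean per time, 9 arrays, moderated variances that follow intensity through eBayes, two-sided, with Benjamini-Hochberg adjustment within set and contrast and a threshold of 0.05). Means carry SDs, and log2 differences carry SEs from that fit. The fit was tested on simulated data.

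Probe sets were named from GEO's platform annotation with symbols updated through gene identifiers, those with several symbols being left unnamed. All probe sets of the 10 genes are named. From each related list up to 3 rises and 3 falls per contrast against 0 h are named, and the 3 most similar patterns per gene. The genes, lists and tests were chosen with earlier results of these data known. Promoter windows come from RefSeq (GRCm38.p6); protein sequences were not used here. Plots used matplotlib 3.10.9 under Python 3.11.15.

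Pairing was checked by correlating deviations from the time means between arrays of the same number. Numbers were taken to pair arrays where every such correlation was over 0.1. On set B all 9 were (0.15 to 0.48), but different numbers reached 0.2 as well (-0.31 to 0.2), and the arrays numbered 1 stand apart. On set A they lay between 0.02 and 0.17 (different numbers, -0.14 to 0.03), so the criterion was not met. Alternatives were other added constants, filters, scalings and priors, the replicate block, a covariate for the Gapdh 5' to 3' signal ratio, and left-out arrays. The number of arrays limits the precision.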

Additional observations from a re-analysis of the deposited data

How the results depend on the processing

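The 6 h rises of Nefl (1426255_at, 2.25 to 2.64 log2) and Nefm (1.19 to 1.84) kept their direction and their call under all 17 alternatives run, as did their steps from 1 h (1.42 to 1.75 and 1.05 to 1.38). The fall of Tubb3 at 6 h (-0.93 to -0.70) kept its call in 16 of 17, all but the Gapdh covariate, and the 6 h rise of Nefl on set B (1.31 to 1.71) in 17 of 18, all but equal array medians (1.31, adjusted p 0.28). For 44 of the 66 differences (22 probe sets, 3 contrasts), those of the brightest probe sets and of probe sets that passed, 630 recomputed values kept direction and call, 97 lost the call, 9 gained it and 14 changed sign; the causes were not tested.

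Without the intensity trend the changed probe sets on set A fell to 265 at 1 h, and those of the 10 genes to 0 at 1 h, 5 at 6 h and 2 between 1 h and 6 h. With the Gapdh covariate they were 62 and 470 over all, and 0 and 2 of the 10 genes, at 1 h and 6 h. Leaving out single arrays gave 277 to 1303 at 1 h and 1039 to 2147 from 1 h to 6 h over all, and 0 to 10, 6 to 14 and 2 to 5 in the 3 contrasts for the 10 genes. On set A the higher share of calls from 1 h to 6 h was 43.8%, and 62.5% with array medians set equal.

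On set B the counts over all probe sets at 1 h, 6 h and between them were 15, 440 and 97 on the deposited scale, 5, 118 and 3 with array medians set equal, 5, 150 and 12 without the trend, and 116, 1468 and 859 with the replicate block. The Gapdh covariate gave 6 and 137 at 1 h and 6 h, leaving out the arrays numbered 1 gave 18 at 1 h, and single arrays gave 9 to 70, 430 to 817 and 171 to 429. Of the 4 probe sets there, 1 passed at 1 h with the replicate block, 0 at 6 h with equal medians, and 0 from 1 h to 6 h with equal medians, the deposited scale or no trend.

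On set A the replicate block gave 9, 11 and 4 probe sets of the 10 genes in the 3 contrasts, adding Map1b 1421851_at (1.10, adjusted p 0.029) and Ina 1448991_a_at (0.67, adjusted p 0.0436) at 1 h and Map2 1421328_at (0.93, adjusted p 0.0306) at 6 h, and 9 of 9 arrays correlated best with an array of their own number, a hint from the data and not from the design. On set B the block changed no call other than that of Nefl at 1 h.

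By the smallest p, or by any probe set of a gene, 5 of the 10 genes changed at 1 h and 8 at 6 h (by any probe set 3.91% and 22.2% of all genes did). Over the 8 related lists (alternatives chosen after seeing the data) the count at 1 h was 2 with no filter, 0 without the trend or with the Gapdh covariate and 0 to 7 without single arrays. At 6 h it was 21 without the trend and 4 with the covariate, where 2.77% of all set A and 0.811% of all set B probe sets passed. From 1 h to 6 h it was 10 with equal medians or no trend and 11 to 21 without single arrays.

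Signs that changed among these differences were all of ones that did not pass. With the Gapdh covariate they were Stmn2 1423280_at (-0.03) and Gap43 (-0.17) at 1 h, and Ina 1418178_at (-0.02), Map2 1421328_at (-0.18), Map1b 1421851_at (-0.59) and Gap43 (-0.03) at 6 h, and outside the 44 Stmn2 1423281_at (-0.03) and Map1b 1450397_at (0.26) at 1 h. With array medians set equal they were Gap43 at 1 h (-0.08) and Map2 1421328_at from 1 h to 6 h (0.03), and with quantile normalization Stmn2 1423280_at from 1 h to 6 h (-0.01). Leaving out single arrays turned Nefm (-0.00 and -0.04 without 0 h replicate 3 and 1 h replicate 1, range -0.04 to 0.29) and Gap43 (-0.05 without 0 h replicate 2, range -0.05 to 0.08) at 1 h, and without 1 h replicate 3 Map2 1421328_at (0.05, range -0.16 to 0.05) and Nefh (-0.20, range -0.20 to 0.58) from 1 h to 6 h.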
